A study of Mus musculus with 16 samples.

Results

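Private Sox2 sites of a single library were examined: the 8813 Sox2 summits called in mouse embryonic fibroblasts (MEFs) 1 day into reprogramming with Oct4, Sox2 and Klf4 (Oct4-SK) that had no counterpart in 11 other summit lists. A summit is the base of highest signal in a ChIP-seq peak. The sites were selected on measured values: a summit of the Sox2 Oct4-SK day 1 list counted as private when none of the other 5 Sox2 lists and none of the 6 lists made with an Oct4 antibody had a summit within 100 bp. Of the 15219 summits of this library on chromosomes 1 to 19, X and Y, 57.9% were private and the other 6406 are called shared. The series held 227116 summits in 13 ChIP libraries.

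All libraries came from OG2 MEFs, which carry an Oct4-promoter GFP reporter, transduced with pMX retroviruses for Sox2, Klf4 and 1 POU factor and moved into the chemically defined medium iCD1 at day 0. The POU factors were Oct4, Oct6, Oct4defSox2 (Oct4 with I21Y and D29R, changes in the interface that meets Sox2 on DNA), Oct4 S151M and Oct6 M151S. Sox2 was profiled at days 1 and 5 with Oct4-SK, Oct6-SK and Oct4defSox2-SK. Oct4 was profiled at days 1, 5 and 7 with Oct4-SK, at days 1 and 5 with Oct4defSox2-SK and at day 1 with Oct4 S151M, and 1 further library, titled day 1 but annotated day 2, used an Oct6 antibody on Oct6 M151S cells. Each group had 1 library, so no replicate error is known and no p-value is given. The 95% intervals below (Wilson for shares, Newcombe for differences) cover counting error among the sites of these libraries only. The libraries hold mixed cells, so fewer bound cells and weaker binding per cell cannot be told apart, and a summit missing from a list was not called there, which is not a measurement of no binding.

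Sox2 is an HMG-box transcription factor that bends DNA at short sites of the CATTGT type. In pluripotent cells it binds with Oct4 on the composite SoxOct element, a Sox site beside an octamer-like site, and in fibroblasts open enhancers often carry AP-1 sites, bound by Fos and Jun family dimers. Klf4, the third factor of the cocktail, reads GC-rich boxes, and TEAD and RUNX factors act at mesenchymal enhancers.

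The sequences were read from the RefSeq GRCm38 (mm10) genome, plus strand, around the summits. The first set shows the 4 highest-scoring private sites with a Sox word (CCATTGT or CCTTTGT on either strand, in capitals) centred within 25 bp of the summit, which lies in the middle of each sequence. They are 463 bp downstream of the start of Cxadr (an adhesion receptor), between genes on chromosome 8, in an intron of Rgl1, and between genes 30337 bp downstream of the start of Mrm1.
Cxadr site, chr16:78301922-78301982: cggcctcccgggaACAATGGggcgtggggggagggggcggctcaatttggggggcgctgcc
Chromosome 8 site, chr8:37428981-37429041: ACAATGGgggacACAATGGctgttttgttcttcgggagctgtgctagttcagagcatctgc
Rgl1 site, chr1:152551064-152551124: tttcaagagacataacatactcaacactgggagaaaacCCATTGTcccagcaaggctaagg
Mrm1 site, chr11:84789148-84789208: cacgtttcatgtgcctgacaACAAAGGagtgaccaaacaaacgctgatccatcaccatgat
Their scores were 21.1, 19.7, 16.7 and 16.1, where the score is the −log10 p-value of the summit. The nearest summit of another list lay 741, 188, 115 and 787 bp away. The chromosome 8 site carries the Sox word in 2 copies on the same strand.

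The second set shows the highest-scoring private sites with a match to the SoxOct element (in capitals, up to 2 mismatches), because SoxOct sites are the form of Sox2 binding that the rule thins out by removing sites with an Oct4-antibody summit. They lie in introns of Cdc42bpa and Atad2b and between genes 140379 bp upstream of the start of Nsmaf.
Cdc42bpa site, chr1:180088819-180089019: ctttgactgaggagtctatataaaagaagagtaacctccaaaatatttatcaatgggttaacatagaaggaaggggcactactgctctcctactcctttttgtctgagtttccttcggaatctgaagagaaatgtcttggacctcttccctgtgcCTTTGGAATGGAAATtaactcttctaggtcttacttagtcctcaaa
Nsmaf site, chr4:6594550-6594750: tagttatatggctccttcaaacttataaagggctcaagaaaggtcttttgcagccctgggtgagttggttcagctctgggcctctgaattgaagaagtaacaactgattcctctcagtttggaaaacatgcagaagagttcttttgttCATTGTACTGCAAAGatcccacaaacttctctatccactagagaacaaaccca
Atad2b site, chr12:5014711-5014771: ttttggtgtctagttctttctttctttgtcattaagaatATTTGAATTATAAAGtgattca
Each of the 3 matches had 2 mismatches, and the Atad2b match was on the minus strand. Their scores were 26.9, 17.0 and 15.2. The nearest other summit was from an Oct4-antibody list in each case. It lay 173 bp (Oct4defSox2-SK day 1), 132 bp (Oct4 S151M) and 6294 bp (Oct4 S151M) away.

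The third set shows private sites with 2 Sox words (in capitals), and a promoter site with KLF boxes (in capitals). The Nell1 site lies in an intron of Nell1, and both of its Sox words stand in copies of 1 local repeat. The Tmem182 site lies between genes, 773006 bp downstream of the start of Tmem182. The Zfand5 site is centred 227 bp upstream of the start of Zfand5.
Nell1 site, chr7:50513697-50513897: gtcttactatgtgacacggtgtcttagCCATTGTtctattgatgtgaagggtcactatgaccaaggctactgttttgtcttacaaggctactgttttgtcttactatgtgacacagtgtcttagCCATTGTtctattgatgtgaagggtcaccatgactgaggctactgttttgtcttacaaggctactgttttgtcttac
Tmem182 site, chr1:41578557-41578657: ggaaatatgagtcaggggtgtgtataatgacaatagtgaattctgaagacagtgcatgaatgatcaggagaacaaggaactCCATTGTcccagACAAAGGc
Zfand5 site, chr19:21271951-21272151: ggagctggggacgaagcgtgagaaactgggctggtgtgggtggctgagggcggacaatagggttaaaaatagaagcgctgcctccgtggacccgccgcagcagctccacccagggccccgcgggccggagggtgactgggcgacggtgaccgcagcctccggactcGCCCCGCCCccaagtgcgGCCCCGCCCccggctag
Their scores were 21.9, 18.5 and 17.0, and the nearest summit of another list lay 4949, 2939 and 135 bp away. The Zfand5 window held 2 KLF boxes and no Sox word.

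The private sites were mostly weak summits. Their median score was 6.22 (quartiles 5.54 and 8.58, highest 31.1), against a median of 10.2 (quartiles 7.66 and 14.8, highest 77.8) for the shared sites. A score of at least 10 was reached by 1173 private sites (13.3%) and by 3346 shared sites (52.2%), and a score of at least 20 by 24 and 647. The scores of the private sites took few values: 5518 of them (62.6%) had 1 of the 6 commonest values, led by 6.22 (1308 sites) and 5.54 (1196 sites). The lists give no read counts, so they do not show the depth behind a summit. In the lowest of 10 score classes 84.5% of summits were private (95% interval 82.7 to 86.2%), and in the highest 8.42% (7.12 to 9.93%). Since the private sites were chosen by presence in other lists, these scores are a description, and most of the comparisons with shared sites below are also given within 4 score classes of about equal size, from class 1 (lowest) to class 4. Private and shared sites can still differ in score within a class.

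**Figure D1:**
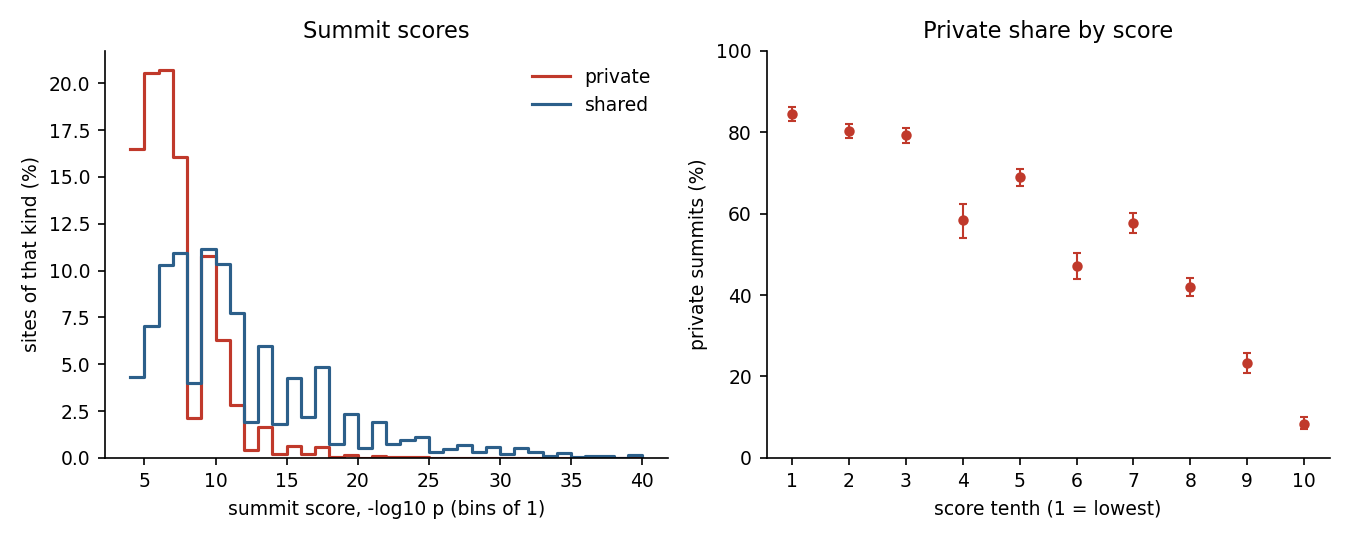
Left, the share of private (red) and shared (blue) sites in each score bin of 1 −log10 p unit, drawn up to 40. Right, the share of summits that were private in each of 10 score classes, with Wilson 95% intervals; it was 84.5% in the lowest class and 8.42% in the highest.

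The private sites ranged from just outside the 100 bp limit to far from every other summit. The median distance to the nearest summit of the other 11 lists was 3211 bp (quartiles 507 and 9274 bp). Of the 8813 sites, 1580 (17.9%) were 101 to 250 bp from another summit, 5989 (68.0%) were over 1 kb away and 3554 (40.3%) over 5 kb away. On the private side of the limit, the 388 sites at 101 to 120 bp had a median score of 8.15, and on the shared side the 499 sites at 81 to 100 bp had a median of 8.73. The strongest private sites sat close to the limit: 9 of the 10 highest, 68 of the 100 highest and 369 of the 1000 highest were within 250 bp of another summit. In 113 cases the peak that held the private summit also held a shared one.

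The 10 highest-scoring private sites show this. The first, at chr16:77698276 in an intron of a non-coding gene, scored 31.1 and lay 113 bp from a Sox2 Oct4defSox2-SK day 1 summit of score 6.27. The second, between genes at chr4:96802399, scored 30.2, held an AP-1 word and lay 105 bp from a Sox2 Oct6-SK day 1 summit of score 7.32. The third is the Cdc42bpa site printed above, 173 bp from an Oct4 summit of Oct4defSox2-SK day 1. The next lay in an intron of Pdcd10 (score 25.2), 110 bp from another summit, followed by one in an intron of Grm7, a glutamate receptor gene (24.97, 122 bp). Of the remaining 5, those near Npvf, Tfb1m, Stxbp3 and Klhl5 lay 110 to 226 bp from another summit. The exception was a site between genes at chr15:51065746, 175283 bp upstream of Trps1, a GATA-type repressor gene, which scored 23.9 and lay 26874 bp from the nearest other summit. Of the 10 windows, 5 held a Sox word and 1 a SoxOct match.

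Among private sites over 1 kb from any other summit, a subset added after the values were seen, the next strongest after the Trps1 site were in an intron of Spats2l (score 23.5, 1 Sox word, 12974 bp from another summit) and between genes 12786 bp downstream of the start of Aldh3a1 (score 23.0, an AP-1 word, 3149 bp). The Nell1 site printed above (21.9) lay 4949 bp from another summit, and a site 301890 bp upstream of Zic1, a neural zinc-finger gene, also scored 21.9 and held no Sox word.

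The lists that matched most sites of the library were 2 Oct4-antibody lists of day 1 cells, each with many summits of its own. The Oct4 list of Oct4defSox2-SK day 1 (31070 summits) had a summit within 100 bp of 3953 of the 15219 sites and was the sole reason for removal at 661. The Oct4 S151M list (101170 summits) did so at 3389 and 732. The Sox2 lists of Oct4defSox2-SK day 5 (21563 summits) and day 1 (5794) matched 1933 and 1618 sites, and the Oct4 list of Oct4-SK day 1 (8216 summits) 1623. The Sox2 list of the same cocktail at day 5 (Oct4-SK, 5832 summits) matched 1100, and widening the distance to 1 kb brought in 217 of the private sites. Of the 6406 shared sites, 2507 had both a Sox2 and an Oct4-antibody counterpart, 956 a Sox2 one alone and 2943 an Oct4-antibody one alone.

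Sox words were more frequent at private sites than in their surroundings, and far less frequent than at shared sites. A Sox word lay within 100 bp of the summit at 1050 private sites (11.9%, 11.3 to 12.6%), against 7.25% of windows of the same length 2 kb to either side. The difference from the downstream window was 4.74 points (3.88 to 5.61). It was 14.4 points (12.04 to 16.8) with a score of at least 10 required in every list, 9.35 points (7.97 to 10.7) with the shorter words CATTGT or CTTTGT, and 2.68 points (2.04 to 3.32) in windows of 50 bp to each side. The score minimum also takes summits out of the other lists, so some of the 1547 sites it keeps were shared without it. At shared sites the share was 28.6% (27.5 to 29.7%), with 7.77% in the flanks. Private minus shared was −16.7 points (−18.0 to −15.4). The gap was present within each score class: −14.8, −14.2, −12.5 and −11.03 points from class 1 to class 4, with no interval reaching 0. Class 4 spans scores from 10.8 to 77.8, so it does not equalize the scores of private and shared sites. The rule removes sites with a summit in another Sox2 list, so the gap between private and shared sites is not free of the rule. With sharing judged on the 6 Sox2 lists alone it was −20.6 points (−22.3 to −18.9). Among private sites the share rose with the score, from 9.71% (8.73 to 10.8%) in class 1 to 21.6% (18.6 to 24.9%) in class 4.

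Both spellings were involved. CCATTGT was found at 5.71% of private sites and 3.50% of their flanks, and CCTTTGT at 6.59% and 3.93%. At shared sites the shares were 14.3% and 16.1%. Windows with 2 or more Sox words made up 0.896% of private sites (79 sites, 0.720 to 1.12%) and 4.01% of shared sites (257 sites, 3.56 to 4.52%). The Sox words of private sites did not gather at the summit: 27.4% of the 1137 words were centred within 25 bp of it, against 25.7% and 25.3% in the upstream and downstream flanks. For the 2130 words of shared sites the share was 29.4%, against 28.1% and 25.4% in their flanks.

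**Figure D2:**
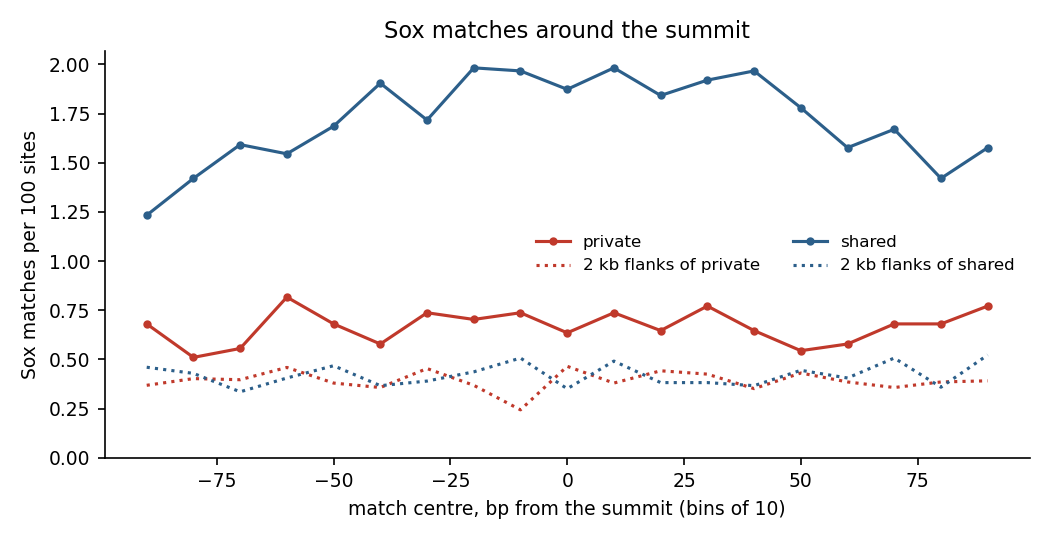
Sox words per 100 sites in bins of 10 bp (vertical axis) by the position of the word's centre relative to the summit (horizontal axis, bp), for private (red) and shared (blue) sites, with dotted lines for the mean of both 2 kb flanks. The private line ran from 0.511 to 0.817 with no peak in the middle, and the shared line from 1.23 to 1.98.

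The AP-1 word, TGACTCA on either strand (TGAGTCA reads the same on the other strand), showed the same order. It was at 547 private sites (6.21%, 5.72 to 6.73%), at 3.36% of their flanks and at 14.7% of shared sites (13.8 to 15.6%). It exceeded the downstream window by 2.81 points (2.19 to 3.45). Private minus shared was −8.48 points (−9.49 to −7.49), and −7.05, −10.1, −6.57 and −5.44 points within the score classes, with no interval reaching 0. Sox and AP-1 words occurred together at 99 private sites (1.12%) and 264 shared sites (4.12%), a difference of −3.00 points (−3.55 to −2.48).

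TEAD and RUNX words were near their flank level at private sites, and KLF boxes slightly above it. The difference from the downstream window was 0.386 points for KLF (0.0971 to 0.680), 0.567 for TEAD (−0.0879 to 1.22) and −0.148 for RUNX (−0.779 to 0.483). KLF boxes (GGGCGGGGC, GGGCGTGGC, GGGTGGGGC or GGGTGTGGC, either strand) were at 102 private sites (1.16%, 0.954 to 1.40%), at 0.721% of their flanks and at 1.48% of shared sites. The difference from shared sites, −0.326 points (−0.710 to 0.0381), included 0. Within score classes it was −0.752, −0.828, −0.297 and 0.345 points, and only the interval of class 2 (−1.82 to −0.0622) left out 0. TEAD words (ACATTCC or GCATTCC) were at 5.53% of private sites (5.07 to 6.02%), 4.92% of flanks and 7.04% of shared sites, −1.51 points (−2.31 to −0.735), and the interval included 0 in class 4. RUNX words (TGTGGTT) were at 4.83% (4.41 to 5.30%), 4.99% and 7.31%, −2.47 points (−3.26 to −1.70), and the intervals of classes 2 and 3 included 0.

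POU motifs were scarce at private sites, a share that the rule lowers by removing sites with an Oct4-antibody summit. SoxOct matches were at 103 private sites (1.17%, 0.965 to 1.42%), 0.635% of their flanks and 5.12% of shared sites, a difference of −3.95 points (−4.55 to −3.38) that was −1.78, −3.25, −4.11 and −4.42 points within score classes. With sharing judged on the 6 Sox2 lists alone, the difference was −1.34 points (−2.09 to −0.679), and it was −0.579 points with up to 1 mismatch and −13.3 points with up to 3. SoxOct matches at private sites exceeded the downstream window by 0.545 points (0.266 to 0.831). The octamer ATGCAAAT, which also ends the SoxOct element, was at 1.77% of private sites, 1.58% of flanks and 4.61% of shared sites. MORE or MORE+1, the palindromic elements that hold POU dimers (up to 1 mismatch), were at 0.715%, 0.913% and 2.59%. Within score classes the difference from shared sites ran from −3.07 to −2.67 points for the octamer and from −2.60 to −1.71 points for MORE or MORE+1, with no interval reaching 0. At least 1 of the 8 motifs was found at 28.7% of private sites (27.7 to 29.6%), 21.9% of their flanks and 54.4% of shared sites (53.1 to 55.6%), so 6286 private windows (71.3%) held none.

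**Figure D3:**
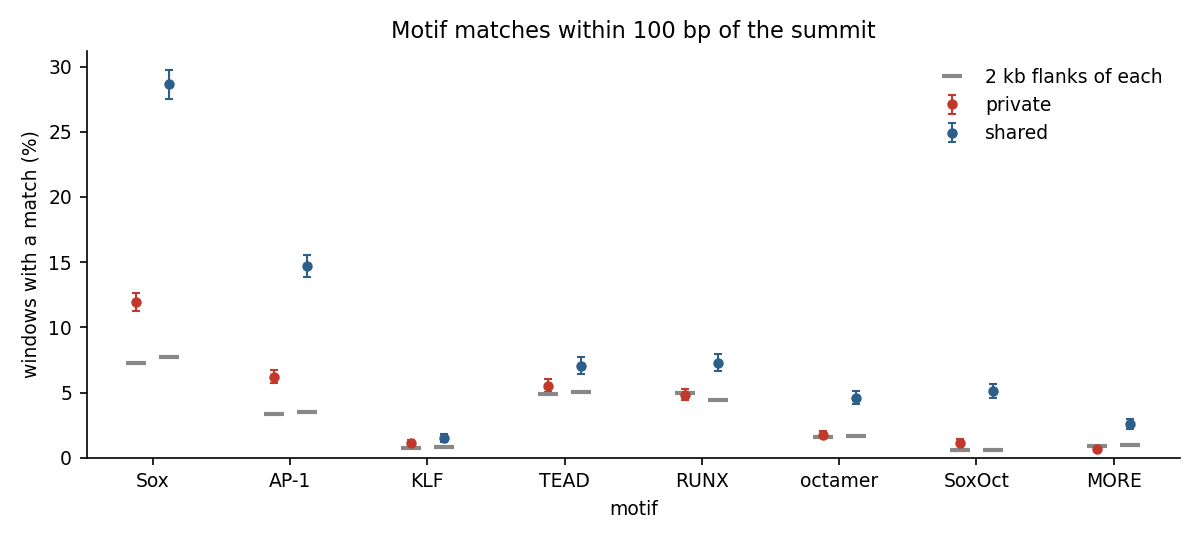
Share of windows of 100 bp to each side of the summit (%) with each of the 8 motifs (horizontal axis) for private (red) and shared (blue) sites, with Wilson 95% intervals, and the mean of the 2 kb flanks of each kind (grey bars). Private sites stood above their flanks for Sox (11.9% against 7.25%) and AP-1 (6.21% against 3.36%) and close to them for TEAD, RUNX, octamer and MORE.

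A count of all words of 7 bases gave the same picture. Of the 5406 strand-collapsed words found in at least 1% of private windows, the highest ratio to the flanks was 1.85, for ACAATAG (4.98% against 2.69%), and the AP-1 word had 1.84. Of the 10 highest, 6 hold the core ATTGT or TTTGT on one strand, the first being ACAATAG, and 3 are the AP-1 word or share 6 of its bases. The remaining word was the GC-rich CGCCCCC, at 1.09% of private sites, 0.647% of flanks and 0.437% of shared sites, the only one of the 10 that was less frequent at shared than at private sites. This ranking was made on the private sites themselves and is a description.

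The motif shares changed with the distance to other summits. The window reaches 100 bp from the private summit, so in the nearest band it ends close to the other summit. Words counted there can belong to either site, which was not tested. Sox words were at 21.6% (17.8 to 26.01%) of private sites 101 to 120 bp from another summit, at 14.9% (13.02 to 17.1%) at 121 to 250 bp and at 11.01, 10.8 and 10.8% in the bands from 251 bp to 50 kb. AP-1 words went from 12.1% to 9.56%, 4.82%, 4.93% and 5.97%. Of the 119 private sites over 50 kb away, 15 held a Sox word (12.6%, 7.79 to 19.8%) and 1 held an AP-1 word (0.840%, 0.148 to 4.61%). Between private sites within and beyond 250 bp the Sox share differed by 5.69 points (3.79 to 7.73) and the AP-1 share by 4.85 points (3.36 to 6.52). Within score classes the Sox difference was 3.87, 5.59, 2.76 and 2.95 points, with intervals that included 0 in classes 3 and 4, and the AP-1 difference was 4.19, 5.19, 4.55 and 1.97 points, with an interval that included 0 in class 4. The 5989 sites over 1 kb away still held more Sox words than their flanks, 10.9% (10.1 to 11.7%) against 7.32%, or 3.72 points (2.70 to 4.75) above the downstream window.

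**Figure D4:**
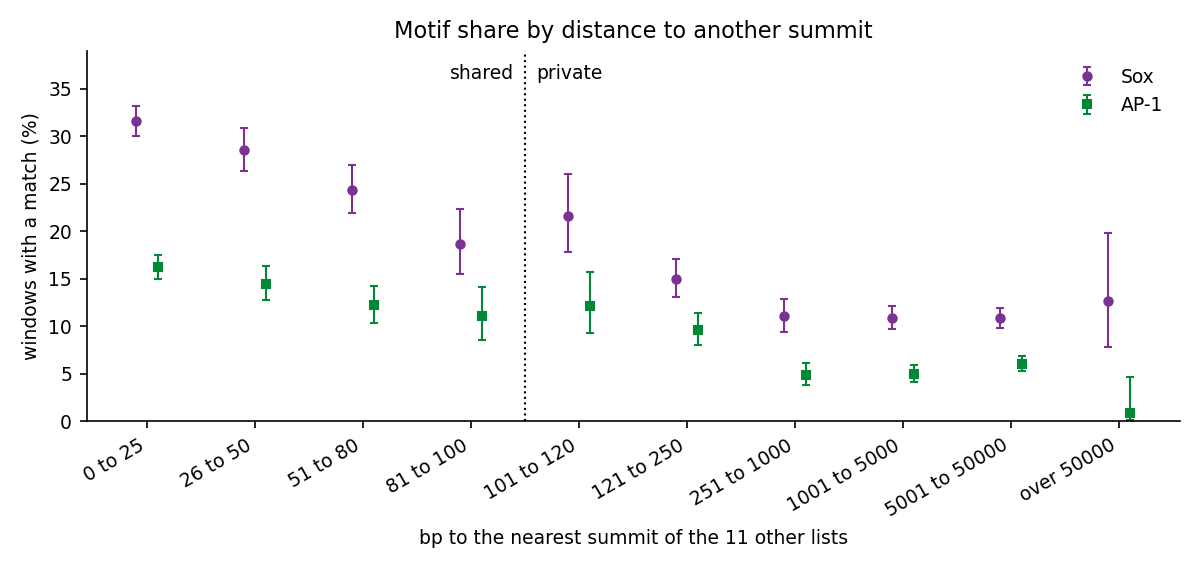
Share of windows (%) with a Sox (circles) or AP-1 (squares) word, with Wilson 95% intervals, by distance in bp to the nearest summit of the other 11 lists. Shared sites are left of the dotted line and private sites right of it; the Sox share was 31.6% at 0 to 25 bp, 21.6% at 101 to 120 bp and 10.8% at 1001 to 5000 bp, and the last band holds 119 sites.

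Repeats were more common at private than at shared sites. In 1431 private windows (16.2%, 15.5 to 17.0%) over 50% of the bases were marked as repeat in the genome file, against 6.17% (5.60 to 6.78%) of shared windows, a difference of 10.1 points (9.10 to 11.04) that was 5.55 points (3.19 to 8.30) in class 4. On average 24.8% of a private window was repeat, 30.4% of its flanks and 16.3% of a shared window. The median GC content was 39.8% at private sites, 41.0% in their flanks and 38.3% at shared sites. Without the windows of over 50% repeat, the differences between private and shared sites in Sox, AP-1, KLF, TEAD, RUNX and SoxOct matches kept their direction and their side of 0.

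By position, 637 private sites (7.23%, 6.71 to 7.79%) lay within 1 kb of an annotated transcript start, 275 (3.12%) in other exons, 3969 (45.0%) in introns and 3932 (44.6%) between genes. At shared sites 4.36% lay within 1 kb of a start, 2.87 points fewer (2.13 to 3.61), and the difference was 1.87, 2.46, 2.33 and 2.63 points within score classes, with an interval that included 0 in class 1. It was 1.17 points (0.283 to 1.996) with sharing judged on the 6 Sox2 lists alone, and 4.43 points (3.17 to 5.68) for sites within 5 kb of a start. Within score classes the 5 kb difference was 5.07, 2.26, 3.19 and 5.96 points, with an interval that included 0 in class 2. The private sites at starts were GC-rich (median 49.3%), and 4.55% of them (29 sites, 3.19 to 6.46%) held a KLF box, against 1.10% of their flanks. Sox words were at 8.95% of them (6.97 to 11.4%) and at 12.6% of sites between genes (11.6 to 13.7%).

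High-scoring private sites within 1 kb of a coding start included the Cxadr site printed above (21.1), the Zfand5 site (17.0) and a site 469 bp downstream of the start of U2af2, a splicing factor gene (17.0). The U2af2 site was 2140 bp from the nearest other summit, and neither it nor the Zfand5 site held a Sox word. By chromosome, private sites ran from 2.59 per Mb on chromosome 7 to 4.20 per Mb on chromosome 19, with 0.824 per Mb on X and none on Y. Shared sites were at 0.690 per Mb on X, below every autosome, and there were also none on Y.

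The Oct6 M151S library was not used to choose the sites, but Oct6 is a POU factor like Oct4. The rule removes sites with an Oct4-antibody summit, and 5450 of the shared sites had one. A lower Oct6 M151S share at private sites is therefore not free of the rule. An Oct6 M151S summit lay within 100 bp of 109 private sites (1.24%, 1.03 to 1.49%), against 0.284% of positions 2 kb away and 664 shared sites (10.4%, 9.64 to 11.1%). That list reaches down to a score of 2.30. The difference, −9.13 points (−9.93 to −8.36), was −4.67, −5.56, −7.57 and −11.4 points within score classes. With a sharing distance of 50 bp it was −9.73 points and with 250 bp −8.52 points, and with the Oct6 M151S distance set to the same value as well it was −5.18 and −14.6 points. With Oct6 M151S summits of score at least 4 only, 56 private sites (0.635%) and 472 shared sites (7.37%) remained, a difference of −6.73 points (−7.41 to −6.09). Of the 4 highest-scoring private sites with an Oct6 M151S summit of any score, those in introns were in Stxbp3 (23.9, Oct6 M151S summit 8 bp away) and Sema6d, a semaphorin gene (17.95, 92 bp). The others lay within 1 kb of an annotated start inside Aadac (17.95, 19 bp) and in an annotated exon within Adamts9, a matrix protease gene (17.95, 46 bp). Sox words were at 13 of the 109 (11.9%, 7.10 to 19.3%), and AP-1 words at 11 (10.1%, 5.73 to 17.2%).

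The same rule was applied to the other Sox2 libraries, each against the other lists. Private shares were 40.7% for Oct4-SK day 5, 38.7% and 22.4% for Oct6-SK days 1 and 5, 29.4% and 67.7% for Oct4defSox2-SK days 1 and 5. The 2 lists with the most summits, Oct4-SK day 1 and Oct4defSox2-SK day 5, had the highest private shares. The 14600 private sites of Oct4defSox2-SK day 5 held Sox words at 19.7% (19.1 to 20.4%), AP-1 words at 9.41% (8.95 to 9.90%) and starts within 1 kb at 13.4% (12.9 to 14.01%). The Oct4-SK day 1 private sites were lower on each, by −7.78 points (−8.71 to −6.84), −3.20 points (−3.89 to −2.51) and −6.22 points (−6.99 to −5.44).

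In the remaining 4 libraries the private sites held Sox words at 21.8% (Oct4-SK day 5), 18.7% (Oct6-SK day 1), 19.9% (Oct6-SK day 5) and 23.9% (Oct4defSox2-SK day 1), while the flanks ran from 6.82 to 9.16%. The Oct4-SK day 1 share of 11.9% was the lowest of the 6. So was the median score of that library's private sites, 6.22 against 6.29 to 7.49 elsewhere. The libraries were not compared within score classes. The differences ran from −6.81 points (−9.16 to −4.64, against Oct6-SK day 1) to −12.0 points (−14.2 to −9.89, against Oct4defSox2-SK day 1). For AP-1 words the intervals of the difference included 0 against Oct4-SK day 5 (0.474 points, −0.649 to 1.49) and Oct6-SK day 5 (0.688 points, −1.50 to 2.34). The AP-1 difference was −2.72 points (−4.49 to −1.17) against Oct6-SK day 1 and −3.77 points (−5.36 to −2.34) against Oct4defSox2-SK day 1. The share of private sites within 1 kb of a start was 7.23% for Oct4-SK day 1, above Oct6-SK day 1 (4.70%, by 2.53 points, 1.11 to 3.71) and Oct4defSox2-SK day 1 (5.16%, by 2.06 points, 0.796 to 3.17), and below Oct4-SK day 5 (12.4%, by −5.21 points, −6.70 to −3.82) and Oct6-SK day 5 (11.2%, by −3.98 points, −6.80 to −1.62). These are comparisons of single libraries.

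**Figure D5:**
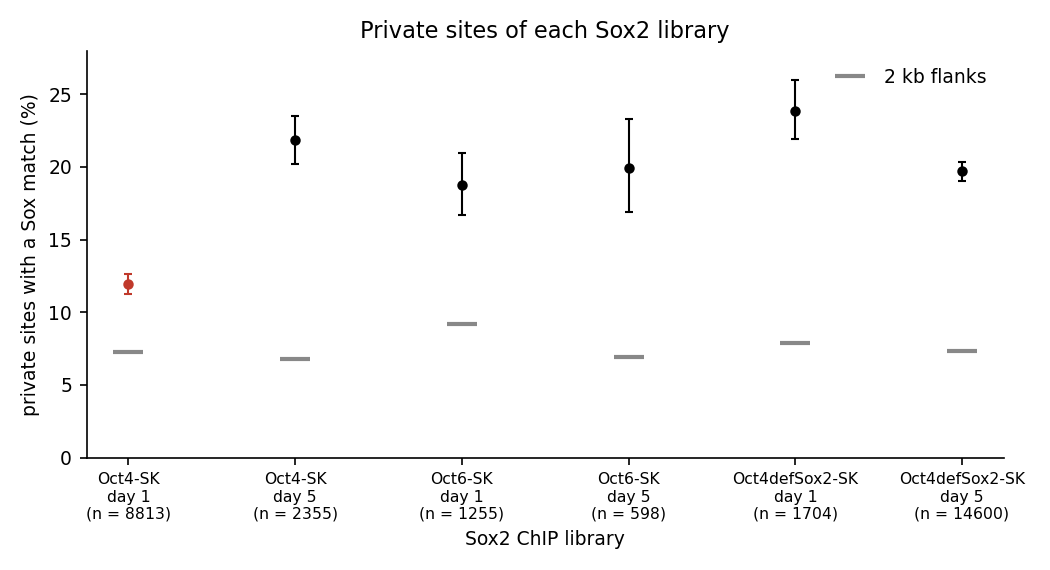
Share of private sites (%) with a Sox word in each of the 6 Sox2 libraries, with Wilson 95% intervals, and the mean of the 2 kb flanks (grey bars). Oct4-SK day 1 (red) was at 11.9% and the other 5 libraries between 18.7 and 23.9%, with flanks between 6.82 and 9.16%.

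Genes near private sites were counted over lists for the cell states of reprogramming. Of 21911 coding genes, 6070 (27.7%) had a private site within 50 kb of the start and 3480 (15.9%) a shared one. Among 20 fibroblast matrix and surface genes, 14 (70.0%, 48.1 to 85.5%) had a private site and 7 a shared one. They included Col1a1, a chain of type I collagen (score 9.46, 25420 bp downstream of the start, with no shared site within 50 kb), and Cdh11, a mesenchymal cadherin (2 private sites, the higher at 9.19). Among 20 mesenchymal transcription factors, 9 (45.0%, 25.8 to 65.8%) had one, led by Zeb1, a repressor of epithelial genes (10.2, 34038 bp downstream), and Prrx2, a limb mesenchyme homeobox gene (9.19, 48969 bp downstream). The intervals come from 20 genes each, and genes of 1 list can share a site.

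The remaining lists stood nearer to the 27.7% of all coding genes. Private sites were near 7 of 20 TGF-beta and BMP genes (35.0%), with Id3, a BMP target, first (9.91, 296 bp downstream) and Smad7, an inhibitor of the pathway, second (9.80, 22081 bp upstream). Of 29 Wnt genes 9 had one (31.0%), with Tcf7, a nuclear effector (9.19), and Wnt3a, a ligand (6.22), first. Of 20 epithelial genes 6 had one (30.0%), with Grhl2, an epithelial transcription factor (9.19, 30715 bp upstream), and Tjp1, a tight junction scaffold (9.12), first, and of 19 Sox family genes 5 (26.3%), with Sox21 (15.2, 24980 bp upstream) and Sox4 (11.6, 1528 bp downstream) first.

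Among 23 neural progenitor genes 5 had a private site (21.7%), with Sox21 and the POU gene Pou3f2 (11.6, 41558 bp downstream) first, and among 14 AP-1 factor genes 3 (21.4%), with Fos (7.66, 19044 bp downstream) and Maf (4.26) first. The pluripotency list had the lowest share: 4 of 26 genes (15.4%, 6.15 to 33.5%), fewer than the 6 with a shared site. Its members with private sites were led by Tet2, a DNA demethylase gene (3 sites, the highest at 8.16, 20496 bp downstream), and Klf5, a relative of Klf4 (3 sites, the highest at 7.60, 15827 bp downstream). The lists are small, and the wide intervals of all but the fibroblast matrix list hold the 27.7% of all coding genes.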

How the data were processed

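ChIP-seq reads were aligned by the authors to mm10 with Bowtie2 2.2.5, filtered for mapping quality and duplicates, and peaks were called per library with MACS2 at p 0.0001 with summits split, although the Oct6 M151S list goes to a looser p. The deposited summit lists give a −log10 p-value per summit and no read counts, so they do not show the depth per sample. The paper reports library statistics in its supplement, which were not used here. It also describes bigger size differences among the POU ChIP-seq libraries. From them, summits within 100 bp were taken as shared. Motifs were matched on both strands, with whole words, within 100 bp of the summit in the GRCm38 genome and in windows 2 kb to either side. Positions came from the GENCODE M21 basic annotation. Shares have Wilson and differences Newcombe 95% intervals (paired against the downstream window), computed with Python 3.11.15 and numpy 2.4.6 and tested on simulated data. Named sites are the highest-scoring members overall (10) and of each class, and the first 2 genes of each list; 1 named site is not reported here. Members and lists were chosen with earlier results of these data known. Alternatives varied the sharing distance, score minimum, lists, windows, motif spellings and repeats. Inputs and 2 peak files were not used here.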

Additional observations from a re-analysis of the deposited data

How the results depend on the processing

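Of 132 values under 21 alternatives, 125 kept their direction and their side of 0 or, for counts, stayed within 1.5 times. With a score of at least 10 in every list, 1547 sites met the rule in place of 8813 and 1116 genes had such a site in place of 6070 (the other lists lose summits too, so some of these sites were shared before), the KLF difference from shared sites was 0.503 points (−0.197 to 1.34, which includes 0 as before) in place of −0.326 points, and the TEAD difference was −0.496 points with an interval that included 0. With the 6 Sox2 lists alone the KLF difference was −0.530 points and its interval no longer included 0. Genes with a private site numbered 2878 within 20 kb and 9954 within 100 kb of the start. The cause of the KLF and TEAD changes was not tested, while fewer summits enter at a higher score. The Sox difference from shared sites ran from −28.2 to −10.1 points and that from the flank from 2.68 to 14.4 points. The AP-1 difference from shared sites ran from −9.51 to −4.42 points, that for RUNX from −2.80 to −1.45 points and that for SoxOct from −13.3 to −0.579 points. Against Oct4defSox2-SK day 5 private sites, the Sox difference ran from −9.84 to −4.91 points and the AP-1 difference from −4.65 to −1.65 points. The number of private sites ran up to 11756, with the Sox2 lists alone. The alternatives of members over 1 kb from every other summit and of a changed Oct6 M151S distance were chosen after seeing the data. No paired analysis was possible because each group has 1 library, and for the same reason there was no replicate to leave out.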
